A study of Mus musculus with 2 samples.

Results

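The genes of hepatic glucose and glycogen metabolism were compared on 2 liver arrays, 1 from irradiated and 1 from control male C57BL/6 mice. A list of 49 genes was taken by symbol: the enzymes of glycolysis, gluconeogenesis and glycogen turnover, the glucose transporters, and a few regulators. Of these, 44 had a probe set annotated with that symbol and no other, out of 22180 genes with such a probe set, and the brightest such probe set by its mean over both arrays stood for each gene. The irradiated mice had received a single whole-body gamma-ray dose of 6 Gy, at 0.81 Gy per minute, when 4 weeks old, and their liver was taken 5 weeks later. The control had no irradiation, and both samples were 9 weeks old when liver RNA was prepared. The labels do not say whether an RNA came from 1 mouse or from several, nor how the control was handled in place of irradiation. There was no replicate of either condition, so no difference below has an error or a test, and folds compare these 2 arrays only.

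Liver takes up glucose after a meal through a high-capacity transporter, breaks some of it down by glycolysis and stores some as glycogen. Between meals it releases glucose, first from glycogen and then by gluconeogenesis from lactate, glycerol and amino acids, with glucose 6-phosphatase as the final step of both. Insulin and glucagon set the balance, partly by controlling fructose 2,6-bisphosphate, a signal metabolite that turns phosphofructokinase on and fructose bisphosphatase off. Several of these enzymes exist as a form typical of hepatocytes and another typical of muscle, brain or dividing cells.

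The values are log2 values made by RMA, in which 1 unit is a 2-fold difference, and each difference is irradiated minus control. A gene counted as expressed when its higher value reached 6.06, the median of all deposited values, and all 44 genes did. Levels of different probe sets cannot be read as relative amounts of RNA. Hepatocyte marker genes had differences between -0.02 and 0.04 over the 9 measured, and Alb, the serum albumin gene, read 13.70 on the irradiated array and 13.68 on the control array.

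The carbohydrate genes differed little between the arrays. Their median difference was 0.01, against -0.00 for all 13689 expressed genes. Of the 44, 23 lay above 0 (52.3%), against 48.5% of expressed genes. None was 1.5-fold higher or lower, where 1.14% of expressed genes were higher by that factor and 0.650% lower by it. A smaller threshold was also used, 25% higher or 20% lower, which are equal steps on the log2 scale. Past it, 3 of 44 were higher (6.82%), against 4.65% of expressed genes, and 0 were lower, against 3.75%. With a second probe set of Pgam1 in place of the brighter one, 1 was lower. The 3 were Pfkfb3, Ppp1r3c and Pfkfb2. A share of 3 in 44 is near that of expressed genes at large, so the count by itself sets the group apart from nothing.

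**Figure D1:**
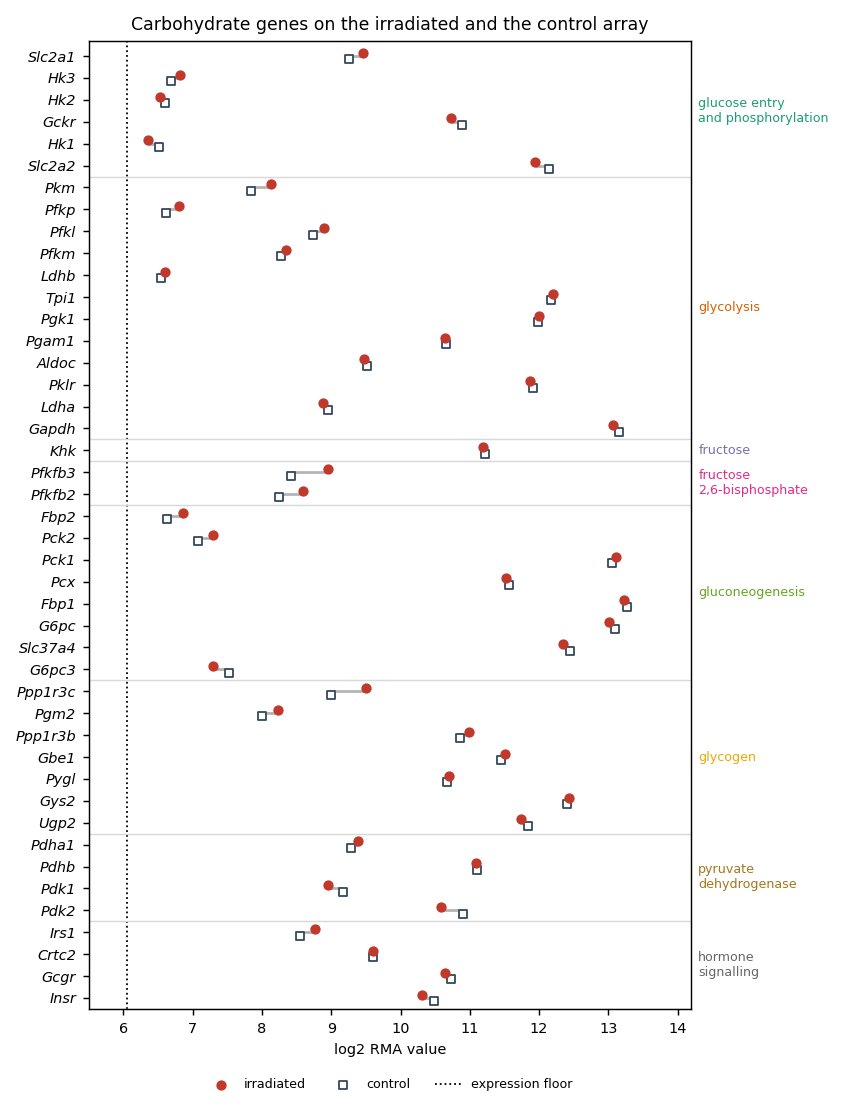
Log2 RMA value (x axis) of each of the 44 carbohydrate genes on the irradiated array (filled circles) and the control array (open squares), grouped by role and ordered by difference within a role. The dotted line is the expression floor of 6.06, and the pair of marks nearly coincides for most genes, with the widest gaps at Pfkfb3 and Ppp1r3c.

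Fructose 2,6-bisphosphate is made and removed by bifunctional enzymes of the Pfkfb family, and this was the step with the widest difference. Pfkfb3, the form with the strongest kinase activity, read 8.95 on the irradiated array and 8.42 on the control array, a difference of 0.53 or 1.44-fold. Of all expressed genes, 1.44% were as far above 0. Pfkfb2, the form best known from heart, read 8.59 on the irradiated array and 8.25 on the control array, a difference of 0.34 or 1.27-fold, just past the 25% threshold. Both therefore read higher after irradiation, and 4.13% of expressed genes lay as far above 0 as Pfkfb2. Pfkfb1, the form typical of liver, was not analysed here, so the form that hepatocytes mainly use is missing from these values.

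The other member past the threshold belonged to glycogen storage. Ppp1r3c encodes PTG, a scaffold that brings protein phosphatase to glycogen and so favours its synthesis. It read 9.51 on the irradiated array and 8.99 on the control array, a difference of 0.52 or 1.43-fold, and 1.51% of expressed genes lay as far above 0. Its relative Ppp1r3b, the targeting subunit most typical of liver, read 10.99 on the irradiated array and 10.86 on the control array, a difference of 0.13. A second probe set for Ppp1r3b went the other way, at 9.05 on the irradiated array and 9.27 on the control array, a difference of -0.23. No direction can be given for Ppp1r3b.

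The enzymes that build and break glycogen were level between the arrays. Gys2, the liver glycogen synthase, read 12.43 on the irradiated array and 12.41 on the control array. Pygl, the liver phosphorylase that releases glucose units, read 10.69 on the irradiated array and 10.67 on the control array. Gbe1, the branching enzyme, read 11.51 on the irradiated array and 11.45 on the control array. These 3 differences were 0.02, 0.02 and 0.05. Ugp2, which makes the UDP-glucose that synthase uses, read 11.74 on the irradiated array and 11.84 on the control array, a difference of -0.10. Pgm2, a phosphomutase whose symbol has been swapped with that of Pgm1 in older annotations, read 8.23 on the irradiated array and 8.003 on the control array, a difference of 0.22. Pgm1 itself was named only by a probe set that also carries Itgb3bp, which read 10.88 on the irradiated array and 10.87 on the control array.

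**Figure D2:**
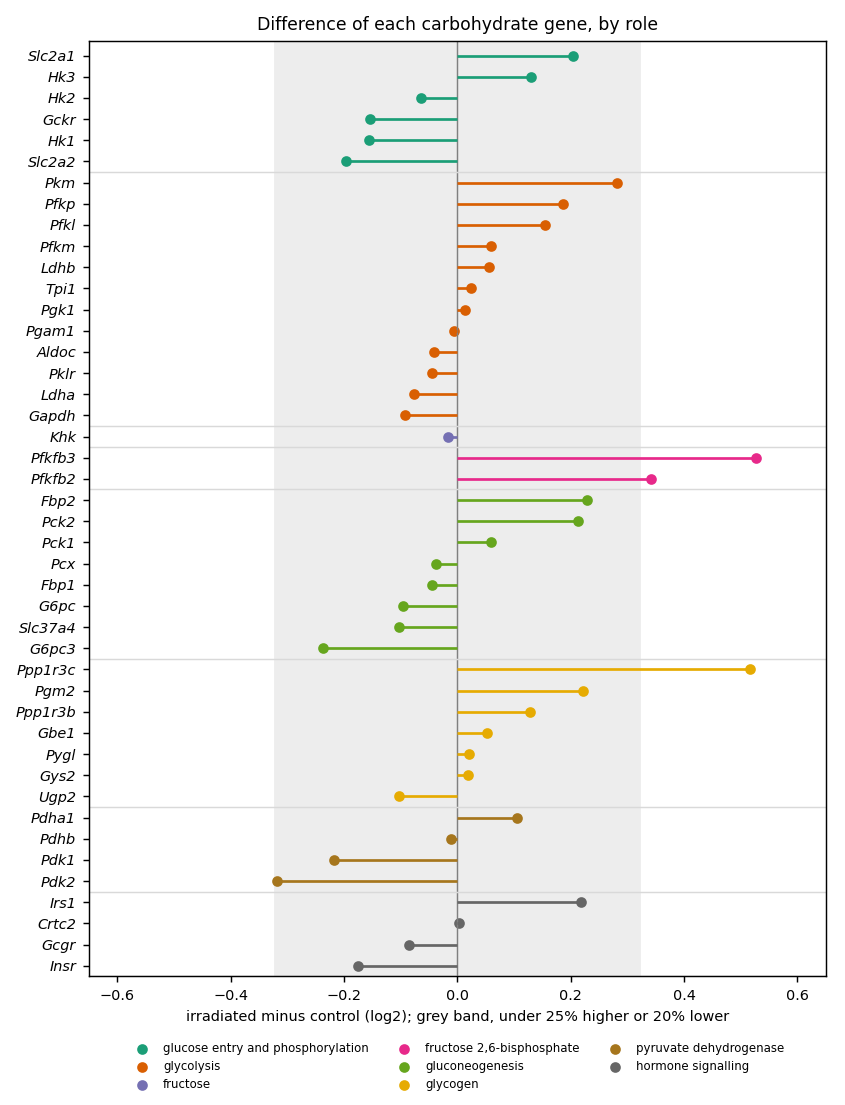
Difference between the irradiated and the control array (log2, x axis) for the 44 carbohydrate genes, coloured by role; the grey band marks differences short of 25% higher or 20% lower. Pfkfb3 (0.53), Ppp1r3c (0.52) and Pfkfb2 (0.34) lie beyond the band on the higher side, and Pdk2 (-0.32) lies at its lower edge.

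At the lower end, the largest difference among the probe sets that stood for genes was that of Pdk2, one of the kinases that switch off pyruvate dehydrogenase and so hold pyruvate back from oxidation. It read 10.58 on the irradiated array and 10.90 on the control array, a difference of -0.32, which was 19.8% lower and just short of the threshold. Pdk1, another of these kinases, read 8.95 on the irradiated array and 9.17 on the control array, a difference of -0.22. Of expressed genes, 3.88% lay as far below 0 as Pdk2 and 9.64% as far below 0 as Pdk1. The genes of the enzyme they act on were closer to 0. Pdha1, which encodes the alpha subunit of the first component, read 9.39 on the irradiated array and 9.28 on the control array. Pdhb, for its beta subunit, read 11.09 on the irradiated array and 11.10 on the control array. Pdk4, a fasting-induced kinase outside the 49, read 7.12 on the irradiated array and 6.91 on the control array, in the other direction from Pdk1 and Pdk2. Pdk4 was named after its value was seen.

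Glucose entry and its first phosphorylation are carried by transporters and hexokinases. Slc2a2 encodes GLUT2, the hepatocyte transporter, and read 11.94 on the irradiated array and 12.14 on the control array, a difference of -0.20. Slc2a1 encodes GLUT1, a transporter of many other cells, and read 9.46 on the irradiated array and 9.25 on the control array, a difference of 0.20. The pair differed in opposite directions, each short of the threshold, but with the mean over both Slc2a1 probe sets the Slc2a1 difference was 0.06. Gckr encodes the nuclear inhibitor of liver glucokinase and read 10.73 on the irradiated array and 10.88 on the control array. Hk1, Hk2 and Hk3, the low-Km hexokinases, lay close above the floor, between 6.36 and 6.82 on the irradiated array and between 6.51 and 6.69 on the control array. Their differences were -0.16, -0.06 and 0.13.

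Along glycolysis the 12 probe sets that stood for genes stayed short of the threshold, with differences from -0.09 to 0.28 and a median of 0.02. A second probe set of Pgam1 was lower by more, at -0.45, as was 1 shared by Gapdh and the pseudogene Gapdh-ps15, at -0.51. Pfkl, the liver phosphofructokinase, read 8.90 on the irradiated array and 8.74 on the control array, a difference of 0.16. Pfkp, its platelet form, read 6.80 on the irradiated array and 6.62 on the control array, a difference of 0.19. Pfkm, the muscle form, read 8.34 on the irradiated array and 8.28 on the control array, a difference of 0.06. All 3 phosphofructokinase genes therefore lay above 0, by less than 25%.

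In the lower part of glycolysis, Tpi1, the triose phosphate isomerase gene, read 12.20 on the irradiated array and 12.17 on the control array. Pgk1, the phosphoglycerate kinase gene, read 11.99 on the irradiated array and 11.98 on the control array. Aldoc, an aldolase form known mainly from brain, read 9.47 on the irradiated array and 9.51 on the control array. Their 3 differences ran from -0.04 to 0.02. Pklr, the pyruvate kinase of liver, read 11.87 on the irradiated array and 11.92 on the control array. Pkm, the pyruvate kinase of muscle and of many non-hepatocyte cells, read 8.13 on the irradiated array and 7.85 on the control array. The Pkm difference of 0.28 was the widest among these 12 probe sets, though smaller than that of the second Pgam1 probe set, and 6.33% of expressed genes lay as far above 0. Ldha and Ldhb, the lactate dehydrogenase subunit genes, differed by -0.08 and 0.06. Khk, the ketohexokinase that opens fructose breakdown, read 11.20 on the irradiated array and 11.21 on the control array.

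Gluconeogenesis starts from pyruvate with Pcx, the pyruvate carboxylase gene, which read 11.53 on the irradiated array and 11.56 on the control array. Pck1, the cytosolic PEP carboxykinase gene and a textbook target of glucagon and fasting, read 13.12 on the irradiated array and 13.06 on the control array. Fbp1, the liver fructose bisphosphatase gene, read 13.23 on the irradiated array and 13.28 on the control array. The 3 genes were within 0.06 of 0 and had some of the brightest probe sets of the list. G6pc, the catalytic subunit of glucose 6-phosphatase, read 13.01 on the irradiated array and 13.10 on the control array. Slc37a4, the transporter that feeds it in the endoplasmic reticulum, read 12.35 on the irradiated array and 12.45 on the control array. Both differed by -0.10.

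The forms of these gluconeogenic enzymes that are less typical of hepatocyte glucose output differed somewhat more. Fbp2, the muscle fructose bisphosphatase, read 6.86 on the irradiated array and 6.63 on the control array, a difference of 0.23. Pck2, the mitochondrial PEP carboxykinase, read 7.29 on the irradiated array and 7.08 on the control array, a difference of 0.21. G6pc3, the ubiquitous glucose 6-phosphatase, read 7.29 on the irradiated array and 7.53 on the control array, a difference of -0.24. These went in both directions, and none reached the threshold. The probe sets of Fbp2, Pck2 and G6pc3 were also dimmer than those of Fbp1, Pck1 and G6pc, and differences spread more widely among dim genes.

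Hormone signalling genes also stayed short of the threshold. Insr, the insulin receptor, read 10.31 on the irradiated array and 10.48 on the control array, a difference of -0.18. Irs1, the adaptor that carries the insulin signal from the receptor, read 8.77 on the irradiated array and 8.55 on the control array, a difference of 0.22. A second Irs1 probe set lay below the floor on both arrays, with a difference of -0.03, and the mean over both gave 0.09. Gcgr, the glucagon receptor, read 10.65 on the irradiated array and 10.73 on the control array. Crtc2, a coactivator through which glucagon raises gluconeogenic genes, read 9.61 on the irradiated array and 9.60 on the control array.

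Signal level bears on how these differences read, since differences spread more widely among dim genes. Expressed genes were divided into 5 equal classes of mean signal, and 23 of the 44 carbohydrate genes fell in the brightest. There their differences ran from -0.32 to 0.13 with a median size of 0.05, against 0.08 for all 2738 genes of that class. In each of the other 4 classes the carbohydrate genes had the wider median size. It was 0.21 against 0.09 in the second brightest class, with 10 of them, and 0.23 against 0.11 in the middle class, with 4. In the class below it was 0.16 against 0.12, with 6, and in the dimmest, with Hk1 alone, 0.16 against 0.14. Pooled over classes the median size was 0.10 for the 44 and 0.11 for all expressed genes. Differences of 41 of the 44 lay inside the central 95% of their class. The 3 outside were Pfkfb3, Ppp1r3c and Pfkfb2, all in the second brightest class, where the central 95% ran from -0.35 to 0.34. Pfkfb2 was only just outside, at 0.341 against an upper limit of 0.335.

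**Figure D3:**
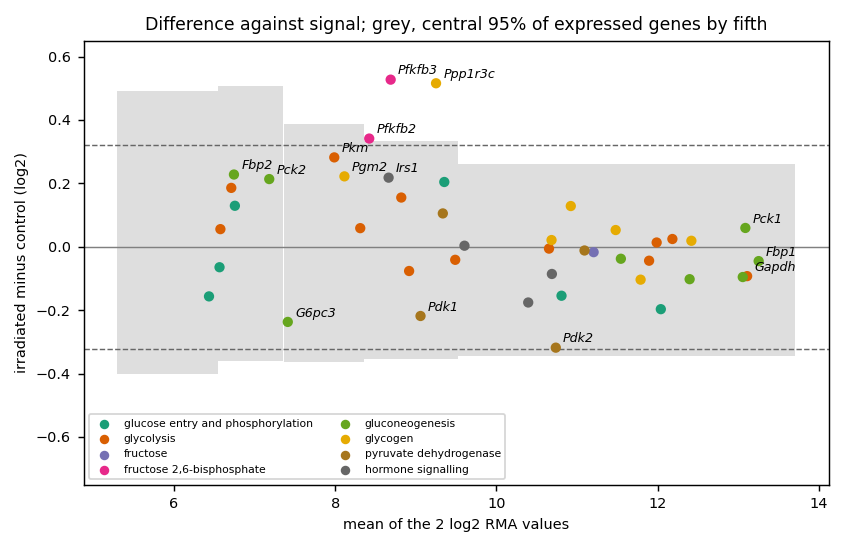
Difference between the irradiated and the control array (log2, y axis) against the mean of the 2 log2 RMA values (x axis) for the 44 carbohydrate genes; grey blocks span the central 95% of all expressed genes in each of 5 signal classes, and dashed lines mark 25% higher and 20% lower. Bright enzymes such as Pck1, Fbp1 and Gapdh lie close to 0, while Pfkfb3 and Ppp1r3c lie above the grey block of their class.

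In 3 pairs of enzyme forms the non-hepatocyte form lay above 0 and the hepatocyte form below it. The differences were 0.20 for Slc2a1 and -0.20 for Slc2a2, 0.28 for Pkm and -0.04 for Pklr, and 0.23 for Fbp2 and -0.05 for Fbp1. Pklr and Fbp1 were close to 0, since 77.5% and 76.9% of expressed genes lay at least as far from it. With the mean over its probe sets Slc2a1 was at 0.06, and Fbp2 was dim, with a mean signal of 6.74. Pygb, the brain form of glycogen phosphorylase and outside the 49, stood at 0.43 beside 0.02 for Pygl, so there both lay above 0. Other pairs had no such order, with Gys1 at -0.03 beside Gys2 at 0.02, and G6pc3 at -0.24 beside G6pc at -0.10. Pck2 at 0.21 and Pck1 at 0.06 both lay above 0, as did Pfkm at 0.06 and Pfkl at 0.16. These pairs, and Gys1, were picked after their values were seen.

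Markers of bile duct and smooth muscle, and some of gut and pancreas, were higher on the irradiated array. Of all expressed genes, 48.5% lay above 0, 4.65% were at least 25% higher and 1.14% at least 1.5-fold higher. Of 8 expressed bile duct markers all were above 0 and 6 at least 1.5-fold higher, and the summed linear signal of the 9 measured was 2266 on the irradiated array and 833 on the control array. Muc1, a duct mucin, differed by 2.62, and Sox9, a duct transcription factor, by 0.19, while Cftr was below the floor on both arrays. Of 8 smooth muscle markers 5 were at least 1.5-fold higher, with Cnn1 at 2.42 and Lmod1 at 0.01, and their sum was 3040 on the irradiated array and 1287 on the control array. Of 7 expressed gut epithelium markers 2 were 1.5-fold higher, with Muc3 at 2.79 and Fabp2 at -0.16. Muc3 also counted as expressed through the irradiated array alone, at 8.67 there and 5.89 on the control array. The summed linear signal of the 8 measured was 2529 on the irradiated array and 2005 on the control array. Of 3 expressed pancreas markers 2 were 1.5-fold higher, with Reg1 at 3.83 and Cela1 at -0.02. Reg1 counted as expressed through the irradiated array alone, at 8.18 there and 4.35 on the control array. Cpa1 and Prss2, below the floor on both arrays, differed by 0.02 and -0.15. The summed linear signal of the 5 measured was 1204 on the irradiated array and 355 on the control array. Of 8 macrophage markers 7 were above 0, 2 were at least 25% higher and 0 reached 1.5-fold, with Vsig4 at 0.40, Cd68 at 0.36 and Adgre1 at -0.05, and the sum was 6655 on the irradiated array and 5710 on the control array. Endothelial markers ran from -0.17 for Tek to 0.26 for Lyve1, with sums of 9532 on the irradiated array and 9467 on the control array. Skeletal muscle markers, of which 4 of 8 were below the floor, had sums of 485 on the irradiated array and 452 on the control array, with Pvalb at 0.24 and Acta1 at -0.09. Pvalb counted as expressed through the irradiated array alone, at 6.27 there and 6.04 on the control array. The 2 expressed red cell markers, Slc4a1 and Klf1, differed by 0.19 and -0.29, and the 5 measured summed to 377 on the irradiated array and 384 on the control array. The part of such cells in the values of Pkm, Slc2a1, Fbp2, Pygb, Pfkfb3 or Ppp1r3c was not tested, and in whole tissue more cells of a type and more RNA per cell cannot be told apart.

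Other genes of carbohydrate metabolism gave a similar picture. A second list of 101 genes covered further transporters, side pathways, glycogen proteins and regulators, and 81 were expressed. Their median difference was -0.02, and 36 were above 0 (44.4%), against 48.5% of expressed genes. Past the smaller threshold 3 were higher (3.70%) and 3 lower (3.70%), against 4.65% and 3.75% of expressed genes, and none was 1.5-fold different.

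Lower by the most was Slc2a5, the fructose transporter GLUT5, at 7.70 on the irradiated array and 8.25 on the control array, a difference of -0.55. Txnip, a glucose-induced gene whose product restrains glucose uptake, read 11.01 on the irradiated array and 11.47 on the control array, a difference of -0.47. Got1, the cytosolic aspartate aminotransferase that shuttles carbon for gluconeogenesis, read 12.11 on the irradiated array and 12.45 on the control array, a difference of -0.34. All 3 were bright enough to lie above the floor on both arrays.

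On the higher side, Pygb read 8.06 on the irradiated array and 7.64 on the control array. Sik1, a kinase that inhibits the Crtc coactivators, read 10.32 on the irradiated array and 9.93 on the control array, a difference of 0.39. Grb10, an inhibitor of the insulin receptor, read 7.16 on the irradiated array and 6.81 on the control array, a difference of 0.35. Grb10 is named because it completes the count, after its value was seen.

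The other genes named here stayed within the threshold. Further glycolytic genes ran from -0.12 for Slc16a7, a monocarboxylate transporter, to 0.26 for Pgam2, the muscle phosphoglycerate mutase. Pgam2 counted as expressed through the irradiated array alone, at 6.16 there and 5.90 on the control array. Pentose phosphate genes ran from -0.26 for Rpia to 0.18 for Pgd. Further glycogen genes other than Pygb went down to -0.31 for Ppp1r3g, another glycogen targeting subunit, and further pyruvate genes up to 0.31 for Pdp1, a phosphatase that reactivates pyruvate dehydrogenase. Of the hexose transporters and kinases, Slc2a13 was highest at 0.13. Galm and Tkfc, the 2 measured genes of galactose and fructose handling, were at 0.02 each.

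**Figure D4:**
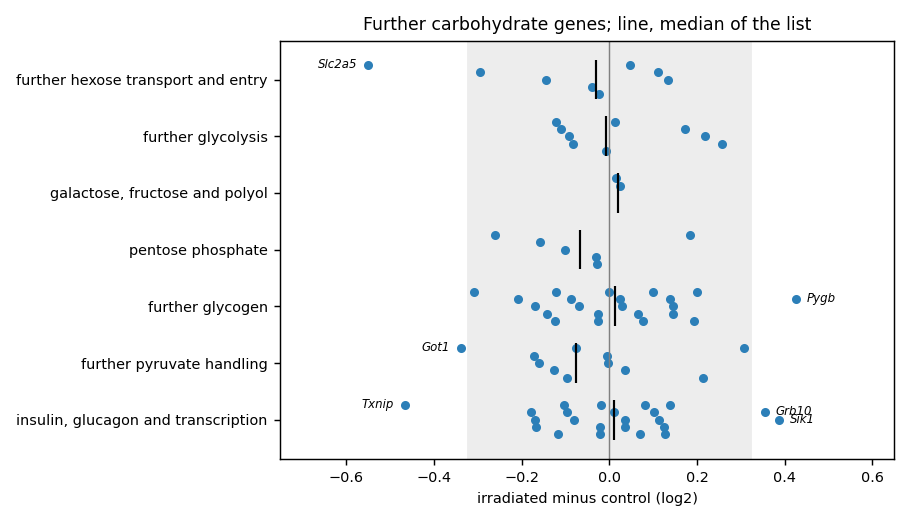
Difference between the irradiated and the control array (log2, x axis) for the 81 expressed genes of the second carbohydrate list, by sublist; each dot is a gene, the black line the sublist's median and the grey band differences under 25% higher or 20% lower. Dots crowd around 0, and the 6 named genes, Slc2a5, Got1, Txnip, Pygb, Grb10 and Sik1, lie outside the band.

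The choice of probe set mattered for Pgam1, the phosphoglycerate mutase gene. The probe set that stood for it read 10.65 on the irradiated array and 10.66 on the control array, a difference of -0.01. A dimmer probe set annotated only with Pgam1 read 9.08 on the irradiated array and 9.53 on the control array, a difference of -0.45 or 1.37-fold lower. Among the 10 named genes nearest to the dimmer probe set in the file's order, all 10 lay on the chromosome that carries Pgam1 in the RefSeq table of GRCm38.p6. Around the brighter one 0 of 10 did. With the dimmer probe set in place, 1 of 44 genes was at least 20% lower.

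Gapdh, the glyceraldehyde phosphate dehydrogenase gene and a common reference gene, was named by 3 probe sets of its own and 8 shared ones. The probe set that stood for it read 13.06 on the irradiated array and 13.16 on the control array, a difference of -0.09. None of the 10 named genes nearest to it in the file lay on the chromosome of Gapdh. The other 2 single-symbol probe sets differed by -0.08 and -0.04, and 7 shared with Gm12070 differed by between -0.08 and -0.04. For 1 of these 7, which differed by -0.08, all 11 nearest named genes lay on the chromosome of Gapdh. The probe set shared with the pseudogene Gapdh-ps15 was dimmer, at 6.27 on the irradiated array and 6.78 on the control array. Its difference was -0.51 or 1.42-fold lower. All 11 named genes nearest to it also lay on the chromosome of Gapdh. For the other 42 of the 44 genes, most of the nearest named genes lay on the gene's own chromosome.

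Further probe sets existed for 4 of the remaining genes. Those of Slc2a1, Irs1 and Pdk1 lay below the floor on both arrays, at differences of -0.09, -0.03 and -0.18, and those of Ppp1r3b are given above. A probe set shared by Hk1 and its antisense gene Hk1os read 6.27 on the irradiated array and 6.10 on the control array, a difference of 0.17, where that of Hk1 alone stood at -0.16. Aldoa was named only together with Aldoart1, at 6.13 on the irradiated array and 6.04 on the control array. Gpi1 and Eno1 were not analysed here.

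**Figure D5:**
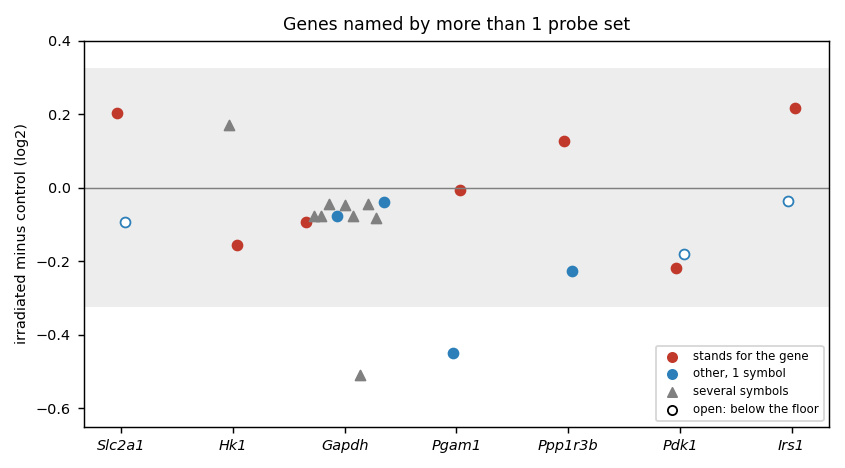
Difference between the irradiated and the control array (log2, y axis) of every probe set that names a carbohydrate gene, for the 7 genes with more than 1; red circles stand for the gene, blue circles are other probe sets of that symbol alone, grey triangles carry several symbols, and open marks lie below the floor. The Gapdh marks lie between -0.09 and -0.04 except the one shared with Gapdh-ps15 (-0.51), and the Pgam1 marks lie at -0.01 and -0.45.

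Promoters were examined for sequence that the choice of genes had not used. They are shown for the 3 genes past the threshold and for Pdk2 because each of the 4 holds CACGTG. This sequence is an E-box, bound by many basic helix-loop-helix proteins. The RefSeq windows of 250 bases before to 50 after a transcript start, build GRCm38.p6, were chr2:11502041-11502340 for Pfkfb3, chr19:36736555-36736854 for Ppp1r3c, chr1:130715772-130716071 for Pfkfb2 and chr11:95041322-95041621 for Pdk2, all on the minus strand. They are printed 5′ to 3′, with the E-box in capitals.
Pfkfb3: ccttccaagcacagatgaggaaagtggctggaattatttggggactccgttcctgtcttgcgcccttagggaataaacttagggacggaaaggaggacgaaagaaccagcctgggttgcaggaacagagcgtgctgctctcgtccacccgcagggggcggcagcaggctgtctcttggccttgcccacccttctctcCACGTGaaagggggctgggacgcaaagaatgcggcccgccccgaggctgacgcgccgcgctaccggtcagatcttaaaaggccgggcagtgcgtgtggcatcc
Ppp1r3c: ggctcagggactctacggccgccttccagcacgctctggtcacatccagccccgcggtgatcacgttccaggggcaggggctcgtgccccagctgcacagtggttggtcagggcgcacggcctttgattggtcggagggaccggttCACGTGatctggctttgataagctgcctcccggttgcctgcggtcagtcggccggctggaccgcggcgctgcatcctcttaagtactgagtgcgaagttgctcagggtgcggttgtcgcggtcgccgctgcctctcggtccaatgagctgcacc
Pfkfb2: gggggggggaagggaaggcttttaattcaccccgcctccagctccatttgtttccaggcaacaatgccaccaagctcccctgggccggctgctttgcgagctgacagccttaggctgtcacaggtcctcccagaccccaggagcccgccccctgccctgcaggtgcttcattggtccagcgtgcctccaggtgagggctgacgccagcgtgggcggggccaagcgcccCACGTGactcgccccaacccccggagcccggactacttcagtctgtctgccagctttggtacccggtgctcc
Pdk2: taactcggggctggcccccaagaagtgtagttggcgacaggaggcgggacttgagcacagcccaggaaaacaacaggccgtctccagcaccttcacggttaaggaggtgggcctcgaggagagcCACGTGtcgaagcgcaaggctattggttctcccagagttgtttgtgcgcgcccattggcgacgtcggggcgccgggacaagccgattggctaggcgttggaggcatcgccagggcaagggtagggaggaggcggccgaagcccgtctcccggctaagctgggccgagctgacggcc

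The E-box began 53 bases before the start in Pfkfb3, 104 in Ppp1r3c, 22 in Pfkfb2 and 126 in Pdk2. The table holds 2 starts for Pfkfb3, 3 for Pfkfb2 and 2 for Pdk2, and the windows of their other starts lack it. Over the list, 45 of the 49 genes had a window and 11 of them (24.4%) had CACGTG in at least 1, against 8.91% of 17491 protein-coding genes. The members had more starts in the table, 1.53 per gene against 1.22, and their windows had 58.6% G and C against 56.2%. Counted by window, 15.9% of the 69 windows of these genes held it, against 7.15% of all 32851. That background is wider, as it takes in genes that are not protein-coding. Of all 27025 genes with a window, 8.09% had CACGTG. The other genes of the list with the E-box were Fbp2, G6pc3, Irs1, Khk, Ldha, Pcx and Pfkm, whose differences ran from -0.24 to 0.23. The E-box was thus found in genes on both sides of 0.

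Other motifs were not more frequent in the list. Each was sought on both strands, and the E-box reads the same on both. TGACGTCA, the full cyclic AMP response element, was in 1 of the 45 genes (2.22%), Ldha, against 2.54% of protein-coding genes. TGTTTAC, the forkhead core bound by FoxO factors, was in 1, Aldoc (2.22%), against 3.45%. TATAAA was in 6 (13.3%), G6pc among them, against 14.8%. A match in these windows is a description of sequence and does not show that a factor binds there.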

How the data were processed

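Total RNA from liver (300 ng per array) was labelled with biotin, per the labels' protocols. The deposited values are log2 values for 41345 probe sets on each of 2 arrays, made by the authors with RMA in Affymetrix Expression Console 1.3.1, per the submitters' processing notes. The log base was read from the range of the values, 1.47 to 13.9 on the irradiated array and 1.46 to 13.9 on the control array. RMA normalizes the arrays to each other, so a shift of all RNA per cell cannot be seen, and the number of arrays limits the precision. Gene symbols came from GEO's platform annotation, RefSeq symbols and promoters from the table of GRCm38.p6. Probe sets with 1 symbol were used, the brightest per gene, which left 13689 expressed genes at the floor of 6.06. No test was run, since each group had 1 array. Members and lists were chosen with earlier results of these data known. All 49 genes could be named, of the second list those past 1.5-fold and the outermost of each sublist, and of each marker list Alb and the outermost in each direction. Pdk4, Gys1, Grb10, Cftr, Cd68, Cpa1 and Prss2 were named outside this rule, after their values were seen. Protein sequences were not used here. The procedure was tested on simulated data. Computation used Python 3.11.15, pandas 2.3.3 and statsmodels 0.14.6 (loess, span 0.3).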

Additional observations from a re-analysis of the deposited data

How the results depend on the processing

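No paired analysis was possible because there was a single array per condition. Under the 9 alternatives to the processing, 2 or 3 carbohydrate genes were at least 25% higher, 0 were 20% lower and none was 1.5-fold different. Of all genes kept, 2.76% to 6.04% were 25% higher and 2.21% to 5.49% were 20% lower. With the floor at the 75th percentile 3 of 36 were higher, against 2.95% of genes. With 32 added it was 2 of 44, against 2.76%. The median difference of the carbohydrate genes lay between -0.00 and 0.02. The alternatives changed the floor, the scaling of the arrays, how a probe set was picked, or added 32 on the linear scale. With that offset Pfkfb2 came short of 25% (0.31), as the offset shrinks differences by construction. With the mean over probe sets, Pgam1 was at -0.23, Ppp1r3b at -0.05, Slc2a1 at 0.06 and Irs1 at 0.09. There were 2 alternatives chosen after seeing the data. Taking the other Pgam1 probe set left 1 of 44 genes at least 20% lower, against 3.76% of expressed genes. Leaving out Gapdh and Pgam1 gave a median of 0.02. All rest on the same 2 arrays, so none of this measures the spread between animals.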
